A study of Drosophila melanogaster with 7 samples.

Results

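The cytosolic ribosome of *Drosophila* is built from ribosomal RNA and a fixed set of ribosomal proteins (RPs), which are named *RpL* in the large (60S) subunit, *RpS* in the small (40S) subunit and *RpLP* in the acidic stalk that recruits elongation factors. Because every cell needs ribosomes, RP messages rank among the most abundant in most cells, and loss of a single copy of many RP genes gives the Minute phenotype of slow growth and thin bristles. Several RPs are encoded by more than 1 gene, and in flies the duplicate copy is often known from the germ line.

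All genes of the count tables whose symbol begins with *RpL*, *RpS* or *RpLP*, together with *sta* (*stubarista*, which encodes RpSA of the small subunit), were taken as members, and the mitochondrial *mRp* genes were left out. This gave 93 members among 16764 genes, of which 54 belong to the large and 39 to the small subunit. Some carry an *Rp* symbol although their yeast and human homologues act in ribosome assembly and not in the mature ribosome (*RpL24-like*, *RpLP0-like* and *RpL7-like*).

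The data are 10x droplet counts from 7 runs. Each run is 1 library of pooled central brains, without optic lobes, of adult male flies from several wild-derived, inbred *Drosophila* genetic reference panel (DGRP) lines, collected at the age of 4 to 9 days, during sleep (rebound or drug-induced sleep included), in wakefulness or after sleep deprivation. Brains were dissociated with actinomycin D, an inhibitor of transcription. Flies of run 5 were taken at Zeitgeber time (ZT) 20 and those of runs 6 and 7 at ZT8, and runs 1 to 4 mixed 2 ZT times each. The labels give a mixed genotype and various treatments for every run and the tables do not join barcodes to lines, so the 7 runs form 1 group of pooled brains, and line, ZT time and library cannot be told apart where single runs differ. The comparisons below were therefore made between cell types within runs, and their p-values measure only the spread between 7 libraries of pooled brains.

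Depth differed between runs, with 49949595 to 311443505 unique molecular identifiers (UMIs, each standing for 1 captured message) in total and 3661 to 6902 UMIs in the median barcode. The lowest barcode held 500 UMIs in runs 1, 5, 6 and 7 but 2658 to 2914 UMIs in runs 2, 3 and 4. Of 160991 distinct barcode sequences, 3011 occurred in at least 2 runs. After filtering, 139925 cells remained, which were clustered without RP genes and named from marker genes. The pan-neuronal gene *nSyb*, which encodes a synaptic vesicle protein, was detected in 98.6% of cells named neurons, whereas the glial transcription factor *repo* was detected in 38.0% of cells named glia and in 3.35% of neurons. *nSyb* was also detected in 47.1% of glia, at a level of 384 CPM (UMIs of a gene scaled to a library of 1000000 UMIs), against 1949 CPM in neurons. RNA that is free in the droplets is counted in every cell, and its part in the values below was not tested.

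RP genes took 7.51 ± 0.42% of all UMIs (SD, n = 7 runs). The lowest run had 7.07%, the median run 7.35% and the highest 8.10%. The highest was run 5, taken at ZT20 alone, and runs 6 and 7, both taken at ZT8, had 7.07% and 7.22%. Run 1, which mixed ZT8 and ZT20, had 7.97%, and run 3, which mixed ZT2 and ZT20, had 7.12%. All 93 members were detected in at least 1 cell. The mean level was 100 CPM or more for 81 members, between 10 and 100 CPM for 3 and below 10 CPM for 9, and 52 members were among the 200 highest genes. Because the assay counts 3′ ends, a CPM value does not grow with the length of a message.

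The highest level over all cells was that of *RpL37a* (chrX:15137870-15139367, BDGP6), a large subunit gene, with 1544 ± 127 CPM (SD, n = 7 runs). It was followed by *RpL36* with 1527 ± 135 CPM, *RpL15* with 1465 ± 91.1 CPM, *RpL23* with 1456 ± 103 CPM and *RpS29* with 1409 ± 144 CPM. Neighbors in this order differed by less than their spread between runs. The 10 highest members together held only 18.9% of RP UMIs, and the median member at 100 CPM or more varied between runs with a coefficient of variation of 8.05%.

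At the low end stood gene copies and *-like* genes. *RpS28-like* had 4 UMIs among all cells, *RpL10Aa* 3, *RpS19b* 10, *RpL22-like* 11 and *RpS28a* 13, and *RpL7-like* had 70. Exons of *RpL7-like* share 1771 bases with *CG34164* on the same strand. Reads that match both genes were discarded in counting, so its count may be too low. *RpS5b* averaged 0.475 CPM, *RpS10a* 0.539 CPM and *RpL37b* 0.631 CPM. *RpS5b*, *RpS10a*, *RpS19b* and *RpL22-like* are known from ovary or testis. Between these and the bulk of the members lay *RpLP0-like* with 16.6 CPM, *RpS15Ab* with 19.4 CPM and *RpL22* with 99.9 ± 22.5 CPM.

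A few short members varied more between runs. *RpL41*, which encodes a very small basic peptide of the large subunit, had 640 CPM in the lowest run, 1398 CPM in the median run and 1509 CPM in the highest. *RpL39*, another very small protein near the exit of the nascent chain tunnel, had 365, 773 and 888 CPM in the lowest, median and highest run, and *RpL29* had 563, 1107 and 1218 CPM. For *RpL38* these values were 972, 1314 and 1637 CPM, and for *RpS21* 466, 744 and 915 CPM. Run 7, the library with the fewest UMIs, was the lowest for each of these 5 genes, whereas its total RP share of 7.22% was close to the median run. Line, ZT time and library preparation of run 7 cannot be told apart here.

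**Figure D1:**
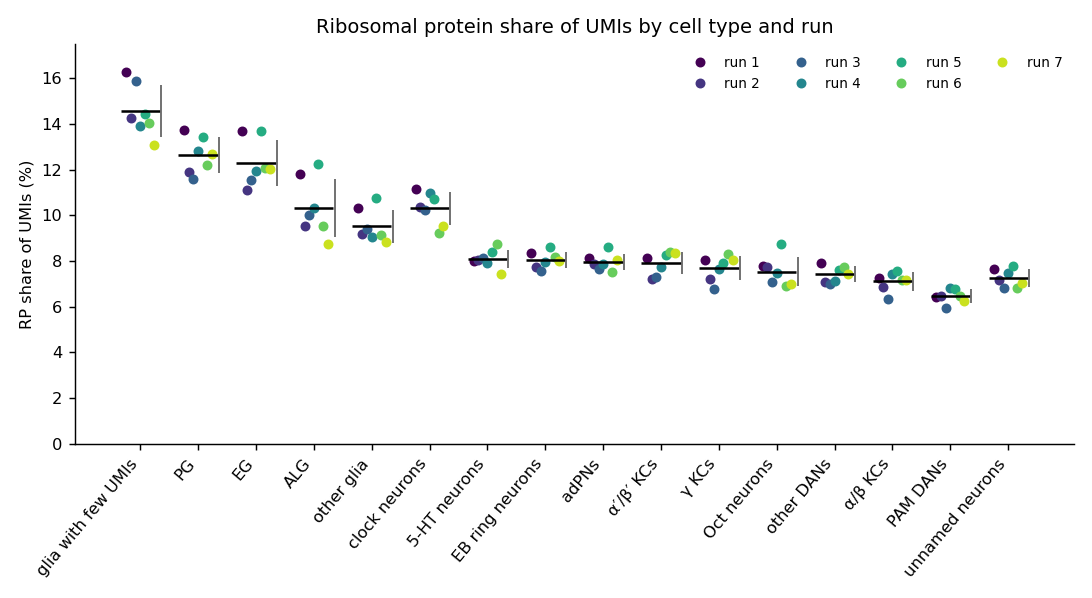
RP share of UMIs in percent (y axis) for each cell type (x axis), with 1 point per run colored by run and a bar at the mean of 7 runs. Named glial types and glia with few UMIs lie at the top, with clock neurons (10.3%) beside ALG (10.3%). Other glia (9.53%) lie below clock neurons, and PAM DANs are lowest at 6.45%.

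Glia devoted a larger part of their messages to RPs than neurons did. The RP share was 10.9% in the lowest, 11.9% in the median and 14.04% in the highest run of glia (mean 12.2 ± 1.13%, SD, n = 7 runs, 9920 cells), against 6.89%, 7.20% and 7.85% in neurons (mean 7.32 ± 0.37%, 120746 cells). The ranges did not overlap. Within each run the ratio was between 1.51 and 1.82, with a mean of 1.67-fold, higher in 7 of 7 runs (exact two-sided sign-flip permutation test, p = 0.0156, the smallest that 7 runs can give, and 0.0216 after Benjamini-Hochberg adjustment over 18 share comparisons). The share of RP UMIs from the large subunit was 60.1 to 62.6% in glia and 59.0 to 59.8% in neurons.

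Other features of the libraries moved with this difference. Glia had fewer UMIs than neurons (median 2934.5 against 5729 per cell) and a higher mitochondrial share (15.8% against 9.77%). All 8 of the neuronal markers had UMIs in glia, where their summed level was 803 to 3151 CPM, against 9049 to 9915 CPM in neurons. Blood cell (hemocyte) markers summed to 616 to 1485 CPM in glia, against 5.75 to 24.8 CPM in neurons, with UMIs of all 8 genes. The collagen gene *Cg25C* held 63.0% of that sum in glia. Fat body markers summed to 256 to 427 CPM in glia, against 82.4 to 114 CPM in neurons. *Rfabg* held 78.4% of the fat body sum in glia. Muscle markers summed to 1693 CPM in the glia of run 6, with a median run at 3.02 CPM, against at most 2.80 CPM in neurons. Without run 6 the mean log2 ratio of RP shares was 0.73, against 0.74 with it. The part of markers of other cells in the RP difference was not tested.

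**Figure D2:**
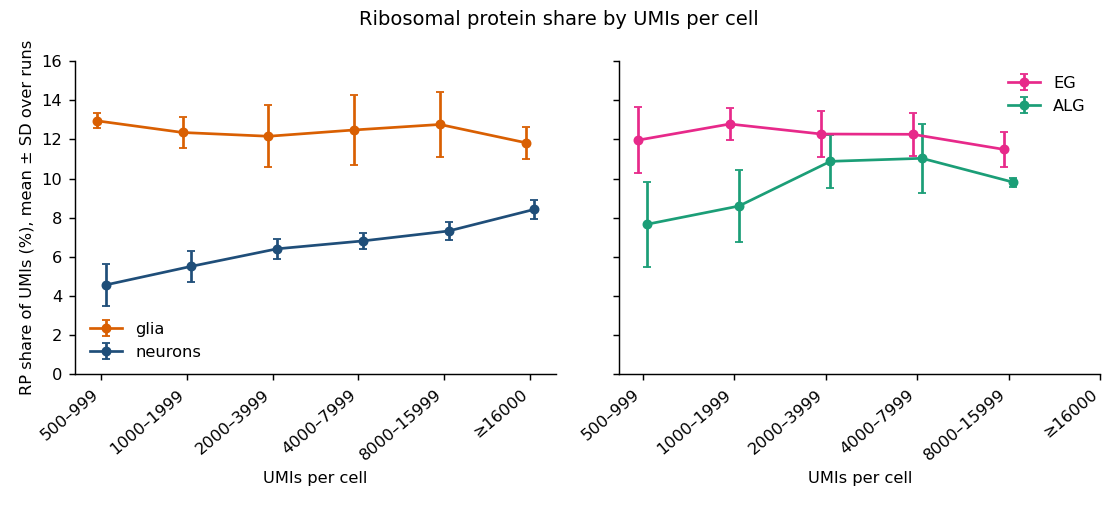
RP share of UMIs in percent (y axis, mean ± SD over runs with at least 20 cells) in bins of UMIs per cell (x axis), glia above neurons in one panel and EG above ALG in the other. Glia stay between 11.8 and 12.9% in every bin, and neurons lie between 4.57 and 8.43%.

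When cells were binned by UMIs, glia had an RP share of 12.9% at 500 to 1000 UMIs, 12.2% at 2000 to 4000 UMIs and 11.8% at 16000 UMIs or more. Neurons had 4.57%, 6.41% and 8.43% in the same bins. Only 4 runs held enough cells below 2000 UMIs in both types, and for glia the bin of 16000 UMIs or more rests on 3 runs and 168 cells, so that the bins cover different sets of runs. Mean shares were higher in glia in every bin. With cells of at least 3000 UMIs only, the mean log2 ratio of glia to neurons was 0.74.

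Among the glial types, perineurial glia (PG), which form the outer layer of the blood-brain barrier, had an RP share of 12.6 ± 0.79%. Ensheathing glia (EG), which wrap neuropil, had 12.3 ± 1.01% and astrocyte-like glia (ALG), whose processes enter the neuropil, 10.3 ± 1.27%. Other glia, which matched no glial type (325 cells), had 9.53 ± 0.72%. A group of glia with few UMIs (median 721 per cell, 3337 cells) had 14.5 ± 1.14%. Without this group the log2 ratio of glia to neurons was 0.69.

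Neuronal types were set against the neurons that matched no marker list, which had an RP share of 7.24 ± 0.40% (101513 cells). Of 15 types tested, glial ones included, 12 were higher and 1 was lower (the same exact test, adjusted p = 0.0216 for 11 of the 13 and 0.0375 for γ KCs and octopaminergic neurons). Clock neurons, which time daily behavior, stood highest with 10.3 ± 0.72% (1.42-fold, higher in 7 of 7 runs). Serotonergic (5-HT) neurons had 8.09 ± 0.40%, ellipsoid body (EB) ring neurons, a population tied to sleep drive, 8.05 ± 0.35%, and antennal lobe projection neurons of the adPN lineage 7.95 ± 0.37%, higher in 7 of 7 runs each. These types were also deeper, with medians of 8398 UMIs per cell in clock neurons, 15349 in 5-HT neurons, 8815 in EB ring neurons and 16189 in adPNs, against 5752 in unnamed neurons. Dopaminergic neurons other than the PAM ones (median 10477 UMIs) had an RP share of 7.41%, and octopaminergic neurons (9486.5 UMIs) 7.53%. The α′/β′ KCs, with a median of 5939 UMIs, had 7.91%. Over all neurons the RP share was 7.32% at 8000 to 16000 UMIs and 8.43% at 16000 UMIs or more, and the part of depth in the differences between neuronal types was not tested.

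PAM dopaminergic neurons (DANs), which signal reward to the mushroom body, were the exception. Their RP share was 6.45 ± 0.31%, 0.89-fold of that in unnamed neurons and lower in 7 of 7 runs. The other DANs had 7.41 ± 0.35% (mean log2 ratio 0.03, between −0.07 and 0.19 in single runs, adjusted p = 0.381 by the same exact test). The difference between both dopaminergic groups was not tested.

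Kenyon cells (KCs), the intrinsic neurons of the mushroom body, had an RP share of 6.75%, 7.79% and 7.84% in the lowest, median and highest run (mean 7.52 ± 0.44%, 13980 cells), against 6.87%, 7.21% and 7.85% in all other neurons (mean 7.30 ± 0.39%, 106766 cells). The ranges overlapped, and KCs were higher in 4 of 7 runs. The mean log2 ratio was 0.04, between −0.03 and 0.19 in single runs (exact two-sided sign-flip permutation test, p = 0.406). Taken as a mean over cells of the share per cell, the log2 ratio was 0.12 (adjusted p = 0.0201 by the same exact test). By subtype, α′/β′ KCs had 7.91 ± 0.50%, γ KCs 7.70 ± 0.53% and α/β KCs 7.11 ± 0.41%, against 7.24% in unnamed neurons. For α/β KCs the adjusted p was 0.334 (exact permutation test, lower in 5 of 7 runs).

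Single clusters showed where the high neuronal shares lay. Across 244 neuronal clusters of at least 50 cells, the RP share was between 4.31 and 12.9% with a median of 7.07%, and 7 clusters reached 10%. The highest was a clock cluster with *cry*, *ITP* and *gl* among its leading genes (204 cells, median 15124.5 UMIs), at 13.1 ± 0.63% over 7 runs, whereas the other clock cluster, led by *vri*, *Clk* and *AstC* (453 cells, median 6779 UMIs), had 8.09 ± 0.46%. The ranges of the 2 clusters, 12.2 to 14.03% and 7.36 to 8.58%, did not overlap. Of the other 6 clusters at 10% or more, the leading genes included *Ms* and *Dh44* in one (11.7%), *twit* and *Proc* in the next (11.03%), *Dfd* and *Fer3* in the third (10.8%) and *Dh31*, *Eh* and *dimm* in the fourth (10.8%). A cluster of 5-HT neurons had 10.1% (53 cells, 3 runs of at least 5 cells), and one with the insulin-like genes *Ilp2*, *Ilp3* and *Ilp5* 10.0% (91 cells, 46.2% from run 4, with only 4 runs of at least 5 cells). Their median cell held 10981.5 to 32701 UMIs, against 5729 in all neurons. At the low end, a cluster led by mitochondrial genes (1820 cells, median 2157.5 UMIs) had 4.31%, and the next, with *Tk* among its leading genes (121 cells), had 4.66%.

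Gene by gene, the higher share of glia was carried by nearly all members. UMIs were summed per run and type and compared with edgeR over all genes, with the run as a block. Of 8771 genes tested, 37.2% were higher and 38.0% lower in glia at an adjusted p of at most 0.05. Of the 86 members tested, 85 were higher and 1 was lower. The other 7 members (*RpS28-like*, *RpL10Aa*, *RpS28a*, *RpS19b*, *RpL22-like*, *RpL7-like* and *RpL37b*) had too few UMIs for the test. CPM were higher in all 7 runs for 77 members, against 23.2% of all genes. The ranges of the 2 types did not overlap for 67 members that were higher in glia, against 19.1% of all genes, and for 1 that was lower, against 42.7%. The median log2 difference of the members was 1.197 (quartiles 0.99 and 1.45), whereas that of all genes was −0.05.

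These values depend on the scaling. The TMM scaling of edgeR, used throughout, centers on the bulk of the genes. Scaled to library totals instead, the median of all genes was −0.54, that of the members was 0.70, and 80 members were higher and 1 lower. How many of all genes were called under this scaling was not counted. On the CPM scale, which follows the totals, 5 members had a lower mean in glia than in neurons, namely *RpS2*, *RpS6*, *RpL24-like*, *RpLP0-like* and *RpS10a*. For the first 4 the TMM log2 difference was positive, between 0.37 and 0.46, and their direction flipped with the scaling.

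**Figure D3:**
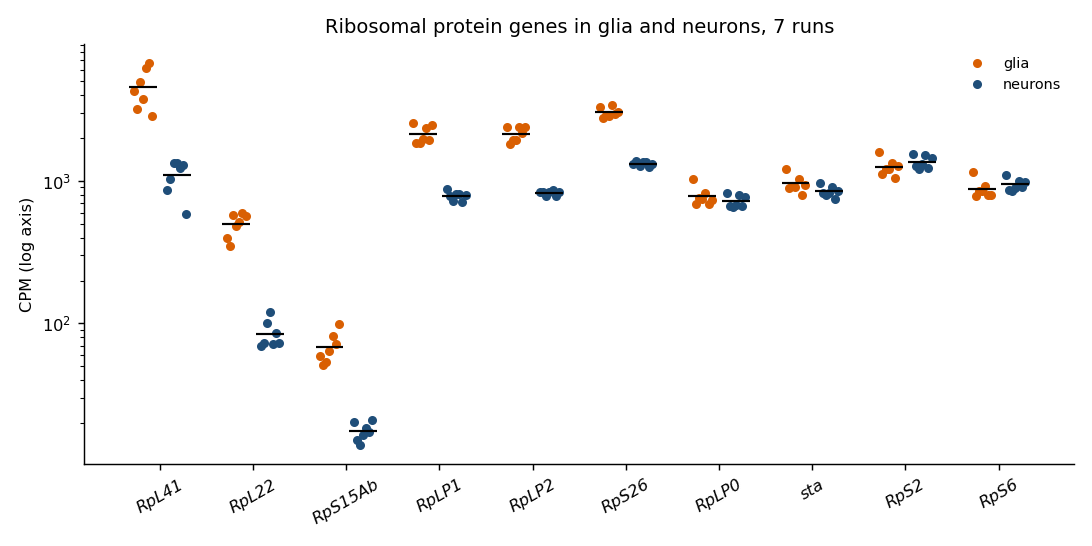
Level of 10 RP genes in CPM (y axis, log axis) in glia and neurons, with 1 point per run and a bar at the mean of 7 runs. *RpL22*, *RpL41* and *RpS15Ab* are separated most, and *RpS2* and *RpS6* overlap.

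Large subunit members led the list. *RpL22* (chrX:762560-765130, BDGP6) encodes a protein of the large subunit that binds RNA. It had 349, 515 and 599 CPM in the lowest, median and highest run of glia, against 69.3, 72.9 and 119 CPM in neurons. The lowest glial value was above the highest neuronal one in this gene, and the log2 difference was 3.06 ± 0.16 (edgeR quasi-likelihood test, adjusted p = 8.16e-07). For log2 differences, here and below, ± gives a standard error (SE) derived from the test statistic, not the SD between runs. An exon of *lncRNA:CR42491* on the same strand overlaps 377 bases of *RpL22* exons, and reads there cannot be assigned.

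For *RpL41* (chr2R:24903416-24903935) the lowest, median and highest run had 2868, 4244 and 6704 CPM in glia, against 587, 1232 and 1336 CPM in neurons, again without overlap. The log2 difference was 2.55 ± 0.17 (edgeR, adjusted p = 2.45e-06). With these levels *RpL41* was the highest of all members in glia, though its spread between runs was also wide.

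The stalk proteins split. *RpLP1* (chr2L:419952-420864) had 1856, 1980 and 2559 CPM in glia, against 708, 791 and 875 CPM in neurons (log2 1.94 ± 0.10, edgeR adjusted p = 6.55e-07). Its dimer partner *RpLP2* had 1821, 2161 and 2398 CPM in glia, against 784, 830 and 870 CPM in neurons (log2 1.87 ± 0.10). *RpLP0*, the base on which both dimers sit, averaged 782 CPM in glia and 723 CPM in neurons, a log2 difference of 0.60 that shrank to 0.11 when scaled to library totals (edgeR, adjusted p = 0.157).

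In the small subunit, *RpS15Ab* (chr2R:10821676-10822399) moved most. This minor copy of *RpS15Aa* had 51.2, 63.7 and 99.5 CPM in glia, against 13.99, 17.2 and 21.2 CPM in neurons (log2 2.43 ± 0.11, edgeR adjusted p = 3.91e-07). *RpS26*, which sits at the exit of the mRNA channel, had 2780, 2964 and 3395 CPM in glia, against 1252, 1313 and 1387 CPM in neurons (log2 1.70 ± 0.09). *RpS18*, a protein of the head of the 40S subunit, had 2379, 2549 and 3115 CPM in glia, against 1090, 1228 and 1366 CPM in neurons (log2 1.63 ± 0.08). For none of these 3 genes did the runs of both types overlap.

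*sta* was at the other end, with 802, 923 and 1217 CPM in glia, against 742, 825 and 971 CPM in neurons. Its ranges overlapped, although it was higher in glia within each of the 7 runs (log2 0.67 ± 0.07, edgeR adjusted p = 2.76e-05). *RpS6*, the target of S6 kinase, averaged 881 CPM in glia and 944 CPM in neurons. *RpS2*, near the mRNA entry channel, averaged 1252 CPM in glia and 1362 CPM in neurons. *RpS10a* was the only member called lower, at a mean of 0.111 CPM in glia and 0.561 CPM in neurons (log2 −1.36 ± 0.55, edgeR adjusted p = 0.0488), and this call was lost with DESeq2. It was also the 1 member lower without overlap. In glia it had 0 CPM in runs 2, 5, 6 and 7 and at most 0.353 CPM in the others, which is at the floor of the counts. *RpS5b*, among the members called higher, had 0 CPM in glia of runs 6 and 7.

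Genes that work with the ribosome were read from the same fit. Of 7 elongation factor genes tested, 6 were higher and 1 was lower in glia. *Ef1alpha48D*, the main gene for the factor that delivers aminoacyl-tRNA, averaged 1755 CPM in glia and 190 CPM in neurons (log2 3.68), whereas its paralog *Ef1alpha100E* averaged 138 CPM in glia and 759 CPM in neurons (log2 −2.05). Of 24 initiation factor genes, 20 were higher in glia. This depended on the scaling, since 11 were higher and 8 lower with library totals.

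The mitochondrial ribosome did not move with the cytosolic one. Of 72 *mRp* genes tested, 6 were higher and 49 lower in glia (1 and 71 with library totals), with a median log2 difference of −0.45. Of 19 genes for ribosome biogenesis and the nucleolus, 7 were higher and 3 lower (3 and 9 with library totals). All 5 ribosome-associated genes were higher (3 higher and 1 lower with library totals), among them *Tctp*, a conserved growth regulator, with 1010 CPM in glia and 312 CPM in neurons (log2 2.18).

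**Figure D4:**
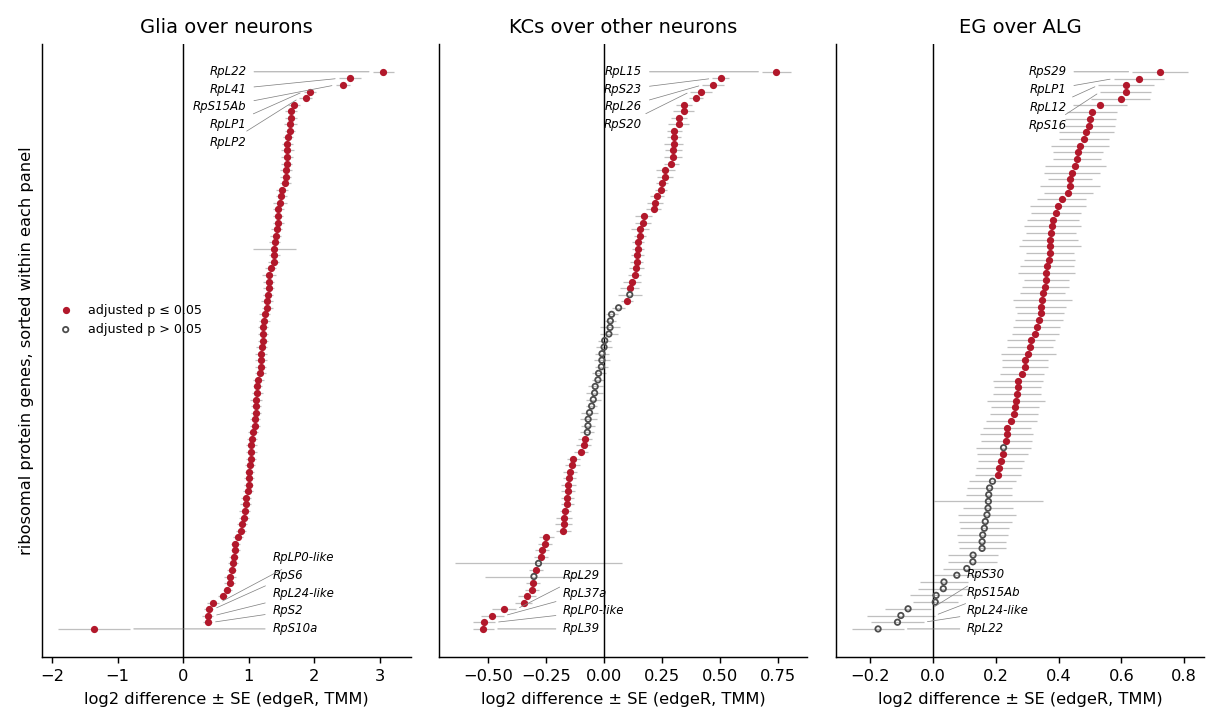
Log2 difference ± SE (x axis, edgeR with TMM) of each RP gene tested, sorted within each panel (y axis), for glia against neurons, KCs against other neurons and EG against ALG. In the first panel 85 of 86 members are called higher, against 37.2% of all genes. In the second 35 of 86 are higher and 28 lower, near the 37.9% and 38.8% of all genes.

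In KCs the total RP share was near that of other neurons, but single members differed in both directions. Of 8630 genes tested, 37.9% were higher and 38.8% lower in KCs. Of 86 members, 35 were higher and 28 lower, shares close to those of all genes. CPM were higher in all 7 runs for 32 members, against 30.7% of all genes, and lower in all 7 runs for 25, against 36.1%. Their median log2 difference was −0.00, equal to that of all genes at this precision. Ranges did not overlap for 8 members that were higher in KCs (against 11.1% of all genes) and for 6 that were lower (against 19.7%).

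*RpL15* (chr3L:27267255-27268445) gave the largest positive difference. It encodes a large subunit protein and lies in pericentromeric sequence of chromosome 3L. KCs had 1791, 2411 and 2773 CPM in the lowest, median and highest run, against 1234, 1403 and 1447 CPM in other neurons. The ranges did not overlap (log2 0.74 ± 0.06, edgeR adjusted p = 5.33e-06). It took 3.04% of RP UMIs in γ, 3.00% in α/β and 2.97% in α′/β′ KCs, against 1.84% in unnamed neurons. EB ring neurons came next with 2.74%.

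*RpS23*, which lines the decoding center, had 796, 920 and 943 CPM in KCs, against 595, 625 and 680 CPM in other neurons (log2 0.50). *RpL26*, beside the exit tunnel, had 1015, 1188 and 1377 CPM in KCs, against 733, 844 and 919 CPM in other neurons (log2 0.47). Neither pair of ranges overlapped. *RpS20*, *RpS30*, *RpS14b*, *RpL36*, *RpS26*, *RpS3A* and *RpL27A* followed with log2 differences between 0.30 and 0.42.

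In the other direction, *RpL37a* had 969, 1099 and 1277 CPM in KCs, against 1379, 1573 and 1714 CPM in other neurons (log2 −0.48 ± 0.05), without overlap. *RpL39* had 246, 537 and 687 CPM in KCs, against 367, 781 and 878 CPM in other neurons (log2 −0.52 ± 0.05, edgeR adjusted p = 7.92e-06). Its ranges overlapped, with run 7 the lowest in both types, and the call was lost without the run as a block (adjusted p = 0.084). *RpLP0-like*, *RpL29*, *RpL3*, *RpL30*, *RpL4*, *RpS2*, *RpS7* and *RpL24-like* were lower by 0.27 to 0.52 on the log2 scale.

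Some of the genes most changed in glia did not pass the test in KCs. *RpL22* had a log2 difference of 0.03 (edgeR, adjusted p = 0.589) and *RpS15Ab* of 0.11 (adjusted p = 0.072). *sta* was lower in KCs (log2 −0.27). Glial markers summed to 202 to 956 CPM in KCs, against 157 to 623 CPM in other neurons, with UMIs of all 9 genes in both, and their part was not tested. Among the genes that work with the ribosome, 18 of 24 initiation factors were higher and 3 lower, while 1 of 72 *mRp* genes was higher and 63 were lower. Of 7 elongation factor genes, 3 were higher and 3 lower. Of 5 ribosome-associated genes, 2 were higher and 1 was lower, with a median log2 difference of 0.05. The 2 higher ones were *Tctp* and *Nacalpha*, a subunit of the complex that meets nascent chains. *Tctp* averaged 706 CPM in KCs and 274 CPM in other neurons (log2 1.36), and *Nacalpha* 792 CPM in KCs and 460 CPM in other neurons (log2 0.78).

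Within glia, EG had a higher RP share than ALG. It was 11.1%, 12.0% and 13.7% in the lowest, median and highest run of EG (mean 12.3 ± 1.01%, 3386 cells), against 8.74%, 10.0% and 12.2% in ALG (mean 10.3 ± 1.27%, 2046 cells). The ranges overlapped, yet EG were higher in 7 of 7 runs, by 1.195-fold on average (exact two-sided sign-flip permutation test, adjusted p = 0.0216). The difference shrank under a limit on UMIs per cell. With cells of at least 3000 UMIs the mean log2 ratio was 0.05 (adjusted p = 0.469 by the same exact test), against 0.26 in all cells, and as few as 2 ALG were then left in a run. By bins, ALG had 7.67 ± 2.18% at 500 to 1000 UMIs (2 runs, 69 cells) and 11.03 ± 1.78% at 4000 to 8000 UMIs (4 runs), whereas EG had 12.0 ± 1.67% (3 runs) and 12.3 ± 1.09% (6 runs). These means cover different sets of runs.

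Marker genes of each type appeared in the other. The 7 ALG markers summed to 10690 to 20960 CPM in EG, against 14460 to 33380 CPM in ALG, so that the ranges overlapped. *Obp44a* held 81.6% of that sum in EG, with 8780 to 18200 CPM. The 6 EG markers summed to 2326 to 4526 CPM in EG, against 635 to 986 CPM in ALG. All 13 genes had UMIs in both types. The astrocytic gene *alrm* was detected in 47.0% of EG, against 99.4% of ALG, and the ensheathing marker *CG9657* in 95.3% of EG, against 41.8% of ALG. Hemocyte markers summed to 623 to 1753 CPM in EG, against 94.9 to 216 CPM in ALG. In EG 5 of 8 had UMIs, with *He*, *eater* and *srp* at 0. *Cg25C* alone held 60.6% of the sum in EG, with 380 to 1060 CPM. *vkg*, which is on the PG list as well, had 236 to 695 CPM there. Fat body markers summed to 569 to 871 CPM in EG, against 68.1 to 140 CPM in ALG, and 3 of 5 had UMIs in EG, with *Fbp1* and *Lsp2* at 0. *Rfabg* alone held 82.5% of the fat body sum in EG. The part of these markers in the RP difference was not tested.

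Of 5789 genes tested between EG and ALG, 19.0% were higher and 12.1% lower in EG. Of 84 members, 60 were higher and 0 lower at an adjusted p of at most 0.05 (2 more, *RpS5b* and *RpS10a*, were too low to test). At an unadjusted edgeR p under 0.05, 1 member was lower (*RpL22*), and DESeq2 called 62 higher and 1 lower. The median log2 difference was 0.31, against −0.03 for all genes. CPM were higher in all 7 runs for 56 members, against 15.1% of all genes, and lower in all 7 runs for 3 (*RpL22*, *RpL24-like* and *RpS30*), against 11.3%. Without the run as a block 31 members were higher (median log2 difference 0.31, against −0.04 for all genes). With cells of at least 3000 UMIs 12 were higher and 2 lower (median 0.12, against −0.12 for all genes). How many of all genes were called under these settings and with DESeq2 was not counted.

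*RpS29* (chr3R:9778042-9779528), a zinc-binding protein of the small subunit, led with 2432, 2818 and 3639 CPM in EG, against 1261, 1937 and 2270 CPM in ALG (log2 0.72 ± 0.09, edgeR adjusted p = 1.30e-06). *RpL12*, at the base of the stalk, had 1353, 1466 and 1609 CPM in EG, against 794, 1065 and 1122 CPM in ALG (log2 0.61). *RpS16*, whose tail reaches the tRNA in the P site, had 1254, 1376 and 1490 CPM in EG, against 743, 949 and 1027 CPM in ALG (log2 0.61). The ranges of these 3 did not overlap, as for 8 members in all, against 6.84% of all genes, while 0 members were lower without overlap, against 3.11% of all genes. *RpLP1* followed with 1980, 2171 and 2743 CPM in EG and 1157, 1467 and 2020 CPM in ALG (log2 0.66), and its ranges overlapped slightly.

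The genes that set glia apart from neurons differed less between both glial types. *RpL22* averaged 593 ± 118 CPM in EG and 707 ± 154 CPM in ALG (log2 −0.18, edgeR adjusted p = 0.114, lower in 7 of 7 runs). *RpL41* averaged 5776 ± 1824 CPM in EG and 4744 ± 1460 CPM in ALG (log2 0.35, edgeR adjusted p = 0.000791), which with cells of at least 3000 UMIs was 0.13 (adjusted p = 0.419). *RpS15Ab* had a log2 difference of −0.10. *Ef1alpha48D* averaged 1684 CPM in EG and 926 CPM in ALG (log2 0.91), and *Rack1*, a scaffold on the 40S subunit, 705 CPM in EG and 485 CPM in ALG (log2 0.57).

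**Figure D5:**
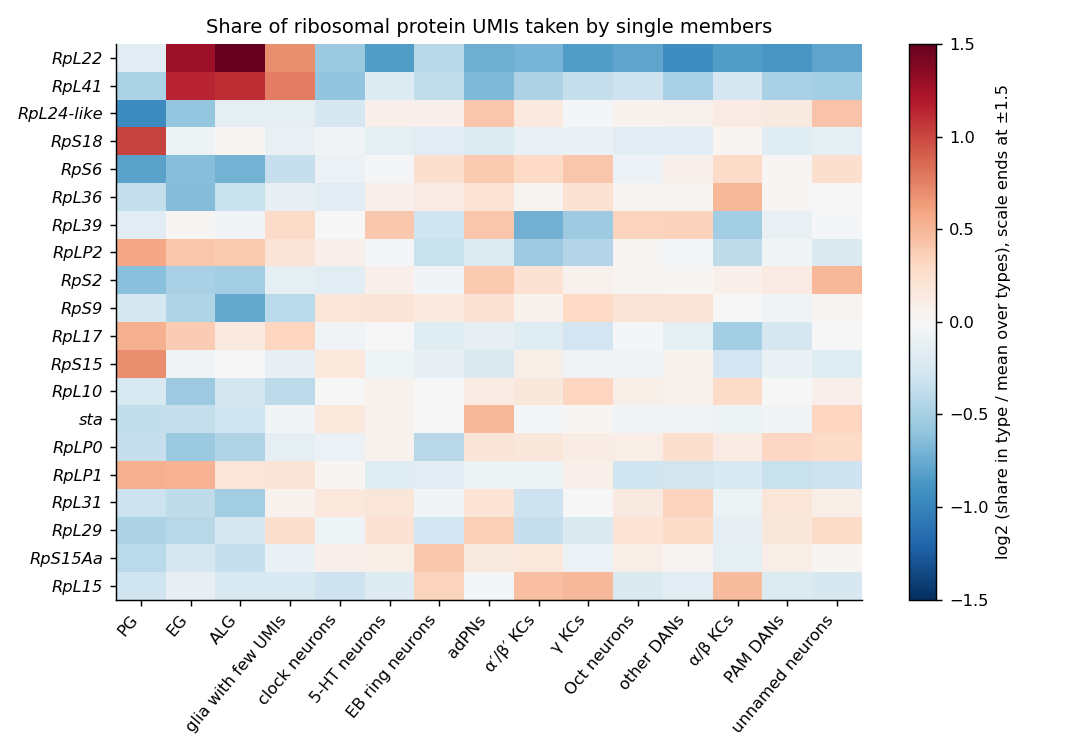
Share of RP UMIs taken by each of 20 RP genes (rows) in 15 cell types (columns), drawn as the log2 ratio to the mean over types, with the color scale ending at ±1.5. *RpL22* and *RpL41* are raised in EG and ALG but not in PG, and *RpS18* is raised in PG.

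The mix of RP messages also differed between types, which can be read from the share of RP UMIs that a member took. These shares do not depend on the total RP level. Only the 82 members with a mean of at least 50 CPM were compared, and the other 11 were not ranked. Among the 82, *RpL22* had the widest range, between 0.105% of RP UMIs in other DANs and 0.697% in ALG, a 6.65-fold span over 15 types. *RpL41* spanned 3.48-fold, between 1.35% in adPNs and 4.69% in EG. The narrowest span of the 82 was that of *RpL19* with 1.21-fold, between 1.48% in γ KCs and 1.78% in adPNs.

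For *RpL22* the level was 707 ± 154 CPM in ALG, 593 ± 118 CPM in EG and 463 ± 174 CPM in glia with few UMIs, and the runs of these 3 types overlapped. The glia with few UMIs numbered as few as 24 cells in a run. PG had 225 ± 43.3 CPM, clock neurons 140 ± 35.7 CPM and EB ring neurons 121 ± 23.2 CPM. Unnamed neurons had 83.4 ± 18.7 CPM and PAM DANs, the lowest, 70.2 ± 21.4 CPM. The highest PG run (278 CPM) lay below the lowest EG run (419 CPM).

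PG also stood apart from the other glia in 2 further genes. *RpL41* took 1.54% of RP UMIs there, near the 1.48% of unnamed neurons, against 4.69% in EG and 4.58% in ALG. *RpS18* took 3.74% in PG, with 4715 ± 494 CPM, against 2158 ± 230 CPM in EG, 1955 ± 315 CPM in ALG and 1216 ± 89.2 CPM in unnamed neurons. The lowest run of PG (4105 CPM) was above the highest of any of these 3 types. These are levels without a test between glial types.

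Related genes formed 13 sets with 27 members, the assembly factor homologues *RpL24-like*, *RpL7-like* and *RpLP0-like* included with the RP gene they resemble, and in every set 1 gene held most of the UMIs. Reads that match both copies were discarded in counting, so each share holds for the reads that tell the copies apart. *RpS14a* and *RpS14b* lie next to each other on the X chromosome and encode the same protein. *RpS14b* took 16.1 ± 3.70% of the pair in all cells (12.5 to 23.1% by run), with 24.3% in EG, 23.0% in PG, 21.5% in ALG and 15.3% in unnamed neurons. The runs of these types overlapped.

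*RpS15Ab* took 2.25 ± 0.24% of its pair with *RpS15Aa* in all cells, but 8.02 ± 1.56% in PG, 7.61 ± 2.81% in ALG and 5.18 ± 0.84% in EG, against 2.02 ± 0.23% in unnamed neurons. Every run of these 3 glial types was above every run of unnamed neurons, since the lowest were 6.10, 4.30 and 4.34% in the glial types, against a highest of 2.30% in unnamed neurons. 5-HT neurons (4.06%) and PAM DANs (4.01%) lay between them, and EB ring neurons were lowest with 1.30%. *RpL34a* took 23.2 ± 0.77% of its pair with *RpL34b*, between 17.9% in ALG and 28.6% in other DANs. *RpS5b* (0.134%), *RpS10a* (0.0576%), *RpL37b* (0.0433%) and *RpL22-like* (0.0146%) stayed near 0 in their sets over all cells.

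Genes that share exons with others carry an added uncertainty. By the annotation, 10 members overlap exons of another gene on the same strand and 25 on the opposite strand. The protocol counts with strand, so that antisense genes are separable in principle. The longest overlaps were those of *RpL7-like* with *CG34164* (1771 bases, same strand), *RpS9* with *asRNA:CR45874* (512 bases, opposite strand) and *RpL23A* with *Uhg7* (421 bases, same strand).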

How the data were processed

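Single-cell libraries of 7 runs of pooled brains were analyzed. The deposited values are unnormalized UMI counts by gene and barcode, which the authors obtained with Cell Ranger 3.1.0 and BDGP6. Cell Ranger discards reads matching several genes. The submitters' processing notes also name Scanpy 1.4.4 and dm6. In runs 5 to 7 the 4 antibody features, which had 0 UMIs, were dropped. Barcodes needed at least 200 genes (266 removed) and at most 30% mitochondrial UMIs (6539 removed). Simulated doublets gave each barcode a score, and the highest scores were removed up to 50% of an expected 0.8% per 1000 barcodes (17557 barcodes), because the automatic threshold called almost none in runs 5 to 7.

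Cells were clustered by Louvain (58 principal components, 15 neighbors, resolution 8, 279 clusters) on 1141 variable genes without RP or mitochondrial genes. A type name other than unnamed neurons required 3 or more markers, and more for KCs. Each needed a level 2 times that of the other cells or higher and detection in 10% of the cells or more. Unnamed neurons needed no marker at that level, only pan-neuronal genes above a set part of their average level over all cells. EG and ALG also needed key genes of their own and a higher mean log2 level, relative to other glia, of their own list than of the other. Clusters with both neuronal and glial markers (6583 cells) and clusters of few UMIs with no type (2516 cells) entered no comparison. Hemocytes (92 cells) were too few to test. The names rest on rebuilt clusters and may differ from those of the study.

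RP shares were compared as log2 ratios within runs by an exact two-sided sign-flip test with Benjamini-Hochberg adjustment. Summed UMIs were tested by the quasi-likelihood test of edgeR with TMM, its filter on low counts and the run as a block (threshold 0.05 after Benjamini-Hochberg adjustment over all genes), because both types of a run come from the same library. Deviations of same-run samples correlated at 0.46 to 0.74 for KCs, 0.20 to 0.74 for EG and ALG and −0.02 to 0.48 for glia and neurons. On simulated counts, the share of changed genes recovered at a log2 change of 1 was 100% for glia against neurons, 100% for KCs and 98% for EG against ALG, and at 0.5 it was 69%, 83% and 41%. Of the calls, 3.43%, 2.66% and 6.08% were false. Only 100 genes were changed at each size, with a fixed spread and the gene proportions of the reference type in both types. In the data far more genes differed, so these rates need not hold there. Counting error limits low members most.

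Genes were named by rule: the 5 highest and 5 lowest by mean CPM, the 10 largest changes in each direction that passed each test with all runs on 1 side, members that share a protein or go against the majority, *sta*, the stalk genes and *RpL41*. *RpL38*, *RpS21*, *RpS6*, *RpL19* and *RpL23A* were named after their values were seen. The members, marker lists and companion lists were chosen with earlier results of these data known. Coordinates are those of BDGP6. Python 3.11.15, numpy 2.4.6, scipy 1.17.1, pandas 2.3.3, igraph 0.11.9, R 4.3.3, edgeR 4.0.16, limma 3.58.1 and DESeq2 1.42.0 were used.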

Additional observations from a re-analysis of the deposited data

Results flagged for a closer look

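*RpL37b*, a minor copy of *RpL37a*, had 2.23 CPM over all cells in run 6 and 0.0706 to 0.788 CPM in the other 6 runs, a gap large enough to set run 6 apart from the rest. Of 92 sets of 7 runs examined in this way 1 was so marked, and chance marks about 1 in 20. No test bears on the origin of these reads.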

How the results depend on the processing

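The RP share of glia against neurons kept its call under every alternative run, with log2 ratios between 0.69 and 0.85. Of the values of named members under alternatives, 211 kept their side of the threshold and 10 lost it in glia, 418 and 7 in KCs, and 221 and 16 in EG against ALG. Taken outside mitochondrial genes, the share over all cells was 8.28%. For KCs the mean over cells of the share per cell gave a log2 ratio of 0.12 (adjusted p = 0.0201, exact sign-flip test), against 0.04 for summed UMIs. For EG against ALG the ratio was 0.049 with cells of at least 3000 UMIs (adjusted p = 0.469, exact sign-flip test) and 0.13 with types taken from marker UMIs per cell (adjusted p = 0.0375). Without the run as a replicate block, 86 members passed in glia, 45 in KCs (26 higher, 19 lower) and 31 in EG against ALG, where cells of at least 3000 UMIs gave 14. *RpLP0* in EG against ALG turned to −0.0929 in these cells (edgeR adjusted p = 0.483), against 0.17 in all cells. Leaving out 1 run at a time gave 85 to 86 members in glia, 60 to 66 in KCs and 45 to 57 in EG against ALG, ratios of 0.72 to 0.76, 0.02 to 0.05 and 0.22 to 0.27, 11 to 12 types past the test against 13 with all runs, and a total share of 7.41 to 7.58%. With 6 runs the smallest exact p is 0.0313. The share of all genes called was not counted under these alternatives, and the cause of these changes was not tested. *RpS10a* lost its call in glia with DESeq2, and *sta* its call in EG (edgeR adjusted p = 0.043) in 6 of 7 sets of 6 runs. Removing doublets up to the full expected share, leaving out glia with few UMIs and leaving out clusters mostly of 1 run were chosen after seeing the data. Types taken from marker UMIs per cell were not used in the sums by gene, and for KCs not in the shares either.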
